A study of Mus musculus with 9 samples.

Results

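The genes described here are 10 alpha and beta tubulin genes of the mouse, among 56289 genes in the deposited expression table: the 4 alpha genes Tuba1a, Tuba1b, Tuba1c and Tuba4a, and the 6 beta genes Tubb2a, Tubb2b, Tubb3, Tubb4b, Tubb5 and Tubb6. They were listed by name, and the set was chosen by the FPKM of Tubb3, which had been seen to be lower with tumour necrosis factor in these libraries. The comparisons of the members with untreated cells are therefore given as a description. Counts of members that passed a threshold there are printed, but nothing is read from them. The libraries are labelled RAW264.7, a mouse macrophage-like line of BALB/c origin grown in DMEM with fetal bovine serum. There were 3 groups of 3 libraries: untreated cells (no time stated in the labels), cells given tumour necrosis factor alpha for 24 h (TNF), and cells given the cytokine for 24 h and Wang Bi granules, a herbal preparation of Chinese medicine (TNF plus WBG). The series asks which genes differ between blank, induced and drug-treated cells. Both treated groups share the cytokine, and because the untreated libraries carry no time, time in culture and the cytokine cannot be told apart in any comparison with them. All levels are FPKM (fragments per kilobase of gene, scaled to library size), which are corrected for gene length, so that levels of different genes can be set side by side.

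Microtubules are polymers of alpha and beta tubulin dimers, and mammals encode each subunit in several genes, the isotypes, whose proteins differ mainly at their carboxy-terminal tails. Tubb5 and Tuba1b are the isotypes found in most dividing cells, Tuba1a, Tubb2a and Tubb2b are abundant in the developing nervous system, Tubb3 (beta III tubulin) is used as a marker of neurons, and Tubb4a is an isotype of neurons and oligodendrocytes. Cells also tune tubulin mRNA to the pool of free dimers: when free dimers are plentiful, the ribosome-bound factor encoded by Ttc5 recognises the first residues of a nascent tubulin chain and the mRNA is degraded.

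The coding sequence for the residues that this mechanism reads is shown for the genes the results turn on. All isotypes have it in related form. It is written 5′ to 3′, with the first 4 codons in capitals (24 bases of the GENCODE M21 coding sequence, GRCm38):
Tubb3: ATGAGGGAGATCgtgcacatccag
Tubb4a: ATGCGGGAAATCgtgcacctgcaa
Tubb4b: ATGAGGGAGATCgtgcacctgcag
Tubb5: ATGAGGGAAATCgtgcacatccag
Tubb2a: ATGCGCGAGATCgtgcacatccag
Tubb2b: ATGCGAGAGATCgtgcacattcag
Tuba1a: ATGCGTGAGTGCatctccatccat
Tuba1b: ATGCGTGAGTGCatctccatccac
Tuba4a: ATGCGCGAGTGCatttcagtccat
Within these 24 bases Tubb4b differed from Tubb3 at 2 positions, all of them outside the capitals, and Tubb5 differed at 1. Tubb2a also differed from Tubb3 at 2 positions and Tubb4a at 5. The alpha genes Tuba1a and Tuba1b differed from Tubb3 at 9 positions, and the fourth codon is TGC in the alpha genes shown and ATC in the beta genes shown. In its bases, the first 4 codons did not set Tubb3 apart from Tubb4b, which has the same 12. These are counts of bases, whereas the factor recognises residues. Translated, the first 4 codons give methionine, arginine, glutamate and isoleucine in every beta gene shown. The alpha genes shown have cysteine in place of isoleucine. The beta genes shown thus differ in bases but not in these 4 residues. Whether this mechanism has a part in any level below was not tested.

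The genes differ more in how far a sequencing fragment can tell them apart. Over the whole coding sequence, Tuba1a and Tuba1b were 98.3% identical, Tubb2a and Tubb2b 96.5%, and Tubb3 was 81.2% identical to Tubb5 and 85.7% to Tubb6, the lowest and highest of its identities to the other beta genes examined. No 100-base window of the Tubb3 transcript occurred in another annotated transcript, and the same held for Tubb5, Tubb6 and Tubb4a. Of the 100-base windows of Tuba1b, 73.0% occurred elsewhere, as did 65.9% of those of Tuba1a and 53.4% of those of Tuba1c, in one another and in other annotated transcripts such as AC157548.1 and Gm49450. The share was 36.9% for Tubb2a and 27.8% for Tubb2b, again chiefly in each other, and 30.6% for Tubb4b, chiefly in the pseudogene Tubb4b-ps1. For Tuba4a, 46.7% of the windows lay in a stretch shared with Stk16, a kinase gene on the opposite strand, and the library kit as described in the labels is not stated to keep strand. Levels of Tubb3, Tubb5, Tubb6 and Tubb4a are therefore the ones least open to such sharing, and those of the Tuba1 genes, of Tubb2a with Tubb2b, of Tubb4b and of Tuba4a are uncertain to the extent that shared fragments were split or assigned to the wrong gene.

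The libraries did not carry the transcripts that define macrophages. Of 10 macrophage markers, 2 reached a mean of 1 FPKM (Cd14 and Cd68), and Ptprc, Itgam and Adgre1 were listed at 0 in all 9 libraries. Of 10 fibroblast markers 8 reached that level, with a median over the 10 of 122 FPKM. Of 20 neuron markers 7 reached it, while Rbfox3, Elavl4, Dcx and Chga of that list were at 0 in all 9 libraries. The median over the 20 was 0.033 FPKM. The glia markers Sox10 (77.0 to 101 FPKM) and S100b (2.49 to 6.88 FPKM) were also present. Between 12611 and 12737 genes reached 1 FPKM in a library. No read counts were used, and a depth of 18.9 to 26.0 M (mega) fragments per library was inferred from the spacing of low values, on the assumption that the smallest step is 1 fragment. The labels do not say whether the 3 libraries of a group came from separate cultures, so the spread and the p-values below measure the variation between these libraries, which may be technical.

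The alpha pool was made up almost wholly of 3 genes. Tuba1a, the highest of the 10, stood at 542, 527 and 505 FPKM in the untreated libraries, 562, 555 and 549.8 FPKM with TNF, and 525, 520.4 and 538 FPKM with TNF plus WBG. The 3 TNF libraries were the highest of the 9 and did not overlap with either other group, although the distance was small: the mean with TNF was 1.06 times the untreated mean. Tuba1b stood at 415, 401 and 391 FPKM without treatment, 405, 386 and 371 FPKM with TNF, and 376, 376 and 377 FPKM with TNF plus WBG. Its untreated and TNF libraries overlapped, and the TNF plus WBG libraries lay below the lowest untreated one. Tuba1c ran from 147 to 159.9 FPKM over all 9 libraries, and its means were 157, 154 and 149 FPKM in the untreated, TNF and TNF plus WBG groups. Tuba4a, an isotype known from muscle and brain, was the least steady member. It stood at 4.53, 4.87 and 8.98 FPKM in the untreated libraries, 5.12, 7.24 and 6.32 FPKM with TNF, and 6.03, 9.83 and 7.38 FPKM with TNF plus WBG, so that the 3 groups overlapped throughout and the untreated SD was 40.4% of the mean. Summed over the 4 genes, alpha tubulin was 1090 ± 31.6 FPKM (SD, n = 3) without treatment, 1103 ± 24.4 FPKM with TNF and 1061 ± 9.76 FPKM with TNF plus WBG.

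Among the beta genes Tubb5, the main isotype of proliferating cells, stood far above the rest, at 379.7, 365 and 355 FPKM without treatment, 368, 362 and 369 FPKM with TNF, and 348, 359 and 357 FPKM with TNF plus WBG. The untreated libraries spanned the TNF libraries, and the ratio of TNF to untreated means was 0.999. Tubb4b, a broadly expressed isotype also used in cilia, kept between 63.8 and 69.9 FPKM in all 9 libraries, and Tubb6, a divergent beta isotype, between 55.3 and 64.4 FPKM, with overlap between every pair of groups. The near-identical pair Tubb2a and Tubb2b was lower in both treated groups than in untreated cells. Tubb2a stood at 78.3, 79.0 and 73.7 FPKM without treatment, 66.5, 71.9 and 69.5 FPKM with TNF, and 64.2, 70.7 and 69.9 FPKM with TNF plus WBG. Tubb2b stood at 8.77, 9.22 and 8.89 FPKM without treatment, 6.96, 7.76 and 7.26 FPKM with TNF, and 6.10, 7.82 and 7.80 FPKM with TNF plus WBG. For both genes every treated library lay below every untreated one, as did the sum of the pair, which avoids the question of how fragments were divided between them (85.9 ± 3.01 FPKM untreated, 76.6 ± 3.11 FPKM with TNF and 75.5 ± 4.54 FPKM with TNF plus WBG, SD, n = 3).

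Tubb3 (ENSMUSG00000062380) differed from the other 9 members in the size of its change. It stood at 54.7, 53.4 and 57.9 FPKM in the untreated libraries, 16.7, 16.1 and 15.6 FPKM with TNF, and 18.9, 18.9 and 21.5 FPKM with TNF plus WBG. The 3 groups did not overlap: untreated cells were highest, TNF was lowest, and TNF plus WBG lay just above TNF. The group means were 55.3 ± 2.30, 16.1 ± 0.56 and 19.8 ± 1.5 FPKM (SD, n = 3), so that the untreated mean was 3.43 times the TNF mean. The highest of the 9 libraries was 3.71 times the lowest for Tubb3, against 2.17 for Tuba4a, 1.51 for Tubb2b and 1.09 to 1.23 for the other 7 members. In bulk RNA, fewer cells that express a gene and less RNA of it per cell cannot be told apart.

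**Figure D1:**
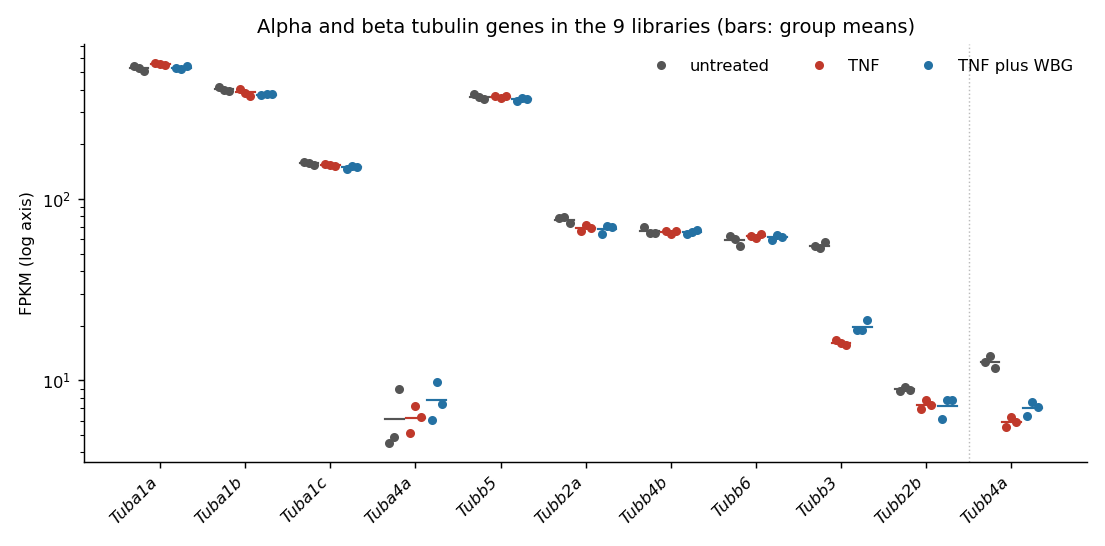
FPKM (log axis) of the 10 member genes and, right of the dotted line, of Tubb4a. Points are single libraries, coloured by group, and short bars are group means (n = 3). Tubb3 drops from 53.4 to 57.9 FPKM in the untreated libraries to 15.6 to 16.7 FPKM with TNF, Tubb4a drops in the same direction, and the points of Tubb5, Tubb4b and Tubb6 lie side by side in the 3 groups.

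The order of the levels changed at few places. In untreated cells it ran Tuba1a, Tuba1b, Tubb5, Tuba1c, Tubb2a, Tubb4b, Tubb6, Tubb3, Tubb2b and Tuba4a, and each gene's 3 libraries lay clear of the next gene's except that Tubb6 overlapped with Tubb3 and Tubb2b with Tuba4a. Without treatment, Tubb3 was thus as high as Tubb6. With TNF the order was the same, but Tubb3 was separated from Tubb6 (60.9 to 64.4 FPKM), while Tubb2a, Tubb4b and Tubb6 ran into each other. With TNF plus WBG, Tuba4a and Tubb2b changed places without being separated in range.

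Tubb3 made up 8.74 ± 0.56% of the summed beta tubulin FPKM in untreated cells, 2.75 ± 0.11% with TNF and 3.42 ± 0.22% with TNF plus WBG (SD, n = 3). The share of Tubb5 was 57.9 ± 0.24%, 62.3 ± 0.26% and 61.5 ± 0.58%, although its level was not higher. The beta sum was 633 ± 18.8 FPKM without treatment, 587 ± 4.95 FPKM with TNF and 577 ± 14.0 FPKM with TNF plus WBG, and the untreated libraries lay above all treated ones. Without Tubb3 the beta sums were 578 ± 20.3, 571 ± 5.24 and 557 ± 13.3 FPKM, and the untreated and TNF libraries overlapped. The ratio of the beta to the alpha sum was 0.581 ± 0.0023 without treatment, 0.533 ± 0.0147 with TNF and 0.544 ± 0.0104 with TNF plus WBG. Adding the other beta genes and the annotated pseudogenes to the sum left the Tubb3 share at 8.56%, 2.71% and 3.38%.

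**Figure D2:**
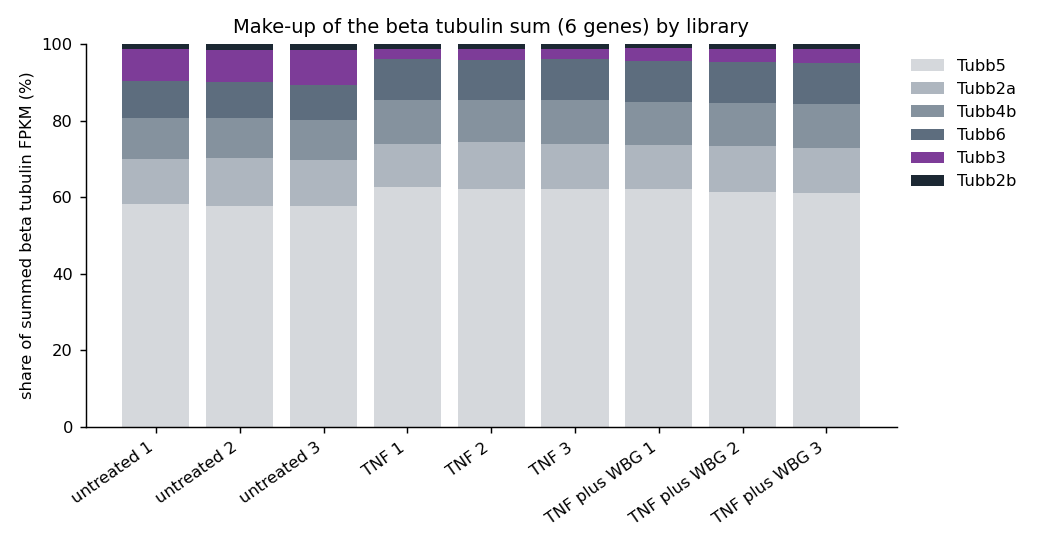
Share (%) of each of 6 beta tubulin genes in their summed FPKM, with 1 bar per library. The Tubb3 band takes 8.37 to 9.39% in the untreated libraries, 2.63 to 2.84% with TNF and 3.24 to 3.67% with TNF plus WBG, and the Tubb5 band is wider in all 6 treated libraries than in the 3 untreated ones.

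On the scale used for the fit, log2(FPKM + 1), the TNF minus untreated difference of Tubb3 was -1.72 ± 0.06 (standard error), the 25th largest change and the 7th largest fall of 13026 genes with at least 1 FPKM in at least 3 libraries. All 10 members passed that filter. The other members lay between -0.26 ± 0.09 (Tubb2b) and 0.08 ± 0.05 (Tubb6), with Tubb2a at -0.15 ± 0.05, Tuba1a at 0.08 ± 0.03 and Tubb5 at -0.001 ± 0.032. Of the 10 members, 1 (Tubb3) passed an adjusted p of 0.05 in limma with Benjamini-Hochberg adjustment over all 13026 genes, where 10.6% of all genes did (4.21% as falls). Without overlap between the groups, 1 member was higher (Tuba1a), as were 15.5% of all genes, and 3 were lower (Tubb2a, Tubb2b and Tubb3), as were 14.4% of all genes. Nothing is read from these counts, since this difference of Tubb3 was what chose the set. The median over the 10 was -0.02 and that of all genes was 3.41e-05. For TNF plus WBG against untreated, which uses the same untreated libraries, Tubb3 stood at -1.44 ± 0.06, 1 member passed where 9.19% of all genes did (3.67% as falls), and 5 were lower without overlap where 13.6% of all genes were. Tubb2a (-0.17 ± 0.05), Tubb2b (-0.28 ± 0.09), Tuba1b (-0.10 ± 0.04) and Tuba1c (-0.07 ± 0.03) were the other members whose libraries lay apart.

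TNF plus WBG against TNF compares cells given both with cells given the cytokine alone. This difference did not choose the members, but it shares the 3 TNF libraries with the one that did. Low TNF values of Tubb3 that helped the choice would also raise its difference here, so its values below are not independent of that choice. None of the 10 tubulin genes changed by the test (limma, adjusted p of 0.05), and 0.0998% of all genes did, that is 13 genes, 9 higher and 4 lower. Tubb3 was higher with WBG in 3 of 3 libraries than in any TNF library, as were 7.03% of all genes, at 1.23 times the TNF mean. Its log2 difference was 0.28 ± 0.06, with a 95% interval of 0.14 to 0.41, an unadjusted p of 0.00133 in limma's model and an adjusted p of 0.31. It was the only member with an unadjusted p under 0.05, a level that 9.06% of all genes reached. At 19.8 FPKM with WBG, the level stayed far from the 55.3 FPKM of untreated cells. Tuba1a (-0.07 ± 0.03, limma adjusted p = 0.56) and Tubb5 (-0.05 ± 0.03, limma adjusted p = 0.722) were lower with WBG without overlap, as were 7.72% of all genes. The remaining 7 members overlapped, with log2 differences between -0.04 (Tuba1c and Tuba1b) and 0.26 ± 0.24 (Tuba4a), and with limma adjusted p of 0.741 to 0.994. For 7 members (Tuba1a, Tuba1b, Tuba1c, Tubb2a, Tubb4b, Tubb5 and Tubb6) the 95% interval of the log2 difference reached no further than -0.15 (Tuba1a) on one side and 0.09 (Tubb4b) on the other, and for Tuba4a it ran from -0.28 to 0.81. When genes with known changes were simulated at the variance of this fit, the same comparison recovered 20.0% of genes changed by 0.25 on the log2 scale and 59.3% of those changed by 0.5. The simulation also held genes changed by 1 and by 2, and more changed genes than the 13 called here. That makes the adjusted threshold easier to reach, so these shares may overstate what the real comparison could recover.

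**Figure D3:**
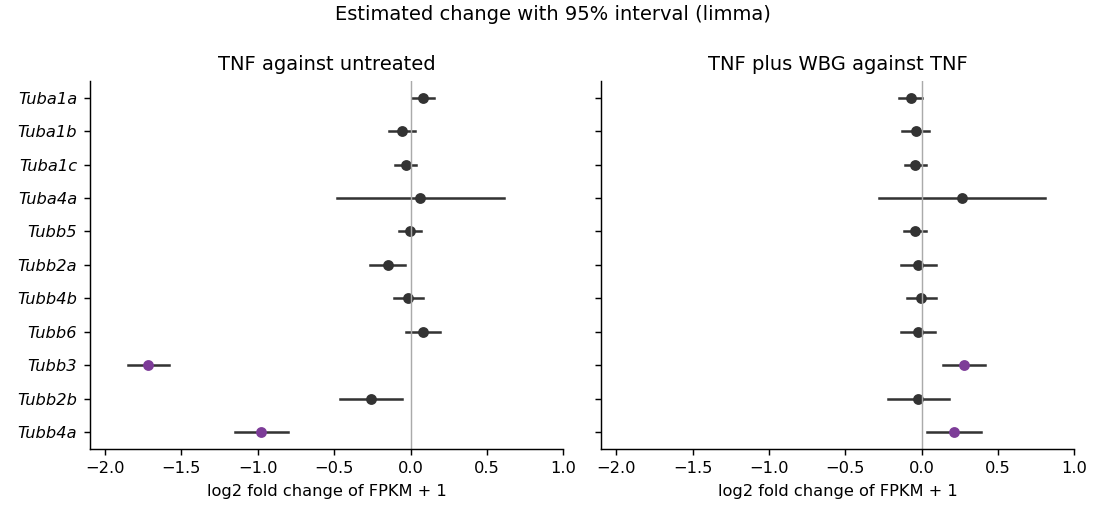
Log2 differences of FPKM + 1 with 95% intervals from the limma fit of all 9 libraries, for TNF against untreated (left) and TNF plus WBG against TNF (right). Tubb3 and Tubb4a are in purple and stand at -1.72 and -0.98 on the left and 0.28 and 0.21 on the right, and the widest intervals belong to Tuba4a.

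The tubulin genes outside the set were mostly silent, and 1 of them moved with Tubb3. Of 10 such genes, 6 (Tuba3a, Tuba3b, Tuba8, Tubal3, Tubb1 and Tubg2) were too low to test, with means of at most 0.11 FPKM in any group. Tubb4a (ENSMUSG00000062591), the beta isotype of oligodendrocytes and neurons, stood at 12.6, 13.5 and 11.7 FPKM without treatment, 5.56, 6.28 and 5.92 FPKM with TNF, and 6.37, 7.57 and 7.11 FPKM with TNF plus WBG. Every treated library lay below every untreated one, and TNF plus WBG lay above all TNF libraries by a small margin. Tubb4a fell by 0.98 ± 0.08 on the log2 scale with TNF (limma adjusted p = 6.82e-05), a call kept in 18 of 18 alternative analyses, and it fell by 0.77 ± 0.08 with TNF plus WBG against untreated (limma adjusted p = 0.000347). With WBG against TNF the difference was 0.21 ± 0.08 (limma adjusted p = 0.503). The minor tubulins stayed close to their untreated levels: gamma-tubulin Tubg1, which nucleates microtubules, had means of 16.5, 16.4 and 15.0 FPKM, and delta-tubulin Tubd1 and epsilon-tubulin Tube1, which serve centrioles, had means between 1.96 and 2.26 FPKM, with limma adjusted p of 0.3 to 0.997 for these 3 genes over the 3 comparisons.

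Because Tubb3 and Tubb4a shared this direction, the 250 bases upstream of their starts are shown (RefSeq, GRCm38.p6, written in the direction of transcription and ending at the base before the start). Tubb3 lies on the plus strand at chr8:123411303-123411552, and capitals mark CCAAT or GGGCGG on either strand:
Tubb3: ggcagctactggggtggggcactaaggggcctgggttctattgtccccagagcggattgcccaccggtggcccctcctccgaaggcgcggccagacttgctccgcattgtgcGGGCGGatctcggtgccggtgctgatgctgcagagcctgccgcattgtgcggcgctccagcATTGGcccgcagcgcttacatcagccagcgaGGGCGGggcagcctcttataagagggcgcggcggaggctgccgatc
Tubb4a lies on the minus strand at chr17:57087601-57087850 and holds none of the motifs searched:
Tubb4a: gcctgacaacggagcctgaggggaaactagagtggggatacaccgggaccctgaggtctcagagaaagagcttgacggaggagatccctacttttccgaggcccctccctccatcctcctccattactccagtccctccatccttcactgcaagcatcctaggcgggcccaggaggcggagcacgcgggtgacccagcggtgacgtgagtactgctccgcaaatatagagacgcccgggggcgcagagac
Both strands were searched for the CCAAT box, the GC box GGGCGG, the TATA box TATAAA, the cyclic AMP element TGACGTCA, the E-box CACGTG and the NF-kB consensus, and no matches overlapped in the Tubb3 window. The Tubb3 window held CCAAT at 77 bases and GGGCGG at 138 and 46 bases before the start. RefSeq entries were matched for 8 of the 10 members. Of these 8 windows, 5 held CCAAT, against 34.5% of 27025 promoter windows of the same length, and 6 held GGGCGG, against 32.9%. None of the 8 held the NF-kB consensus, which 7.0% of all windows held. A match describes the letters of the window only.

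Genes whose profile over the 9 libraries was most like that of Tubb3 were ranked by the root mean square difference between centred log2(FPKM + 1) values, where 0 means the same profile on that scale. The measure is a description, and all 9 points share their libraries. The nearest gene was Sema4f, a transmembrane semaphorin, at 0.070. Its levels were 19.6, 20.2 and 20.0 FPKM without treatment, 5.83, 5.78 and 5.72 FPKM with TNF, and 6.87, 7.04 and 6.97 FPKM with TNF plus WBG, the same order of groups as Tubb3. Atf3, a stress-induced transcription factor, followed at 0.098 with means of 62.6 ± 0.58, 20.7 ± 1.09 and 25.6 ± 2.23 FPKM (SD, n = 3). The next were Fam19a5, a secreted protein gene, at 0.123, Uchl1, the neuronal ubiquitin hydrolase, at 0.126, Xirp1 at 0.126, the alpha-2A adrenergic receptor Adra2a at 0.158, the pseudogene Spn-ps at 0.165, and the semaphorin receptor Plxnb3 at 0.167. The pseudocount of 1 makes low genes look alike: Xirp1 went from 2.12 ± 0.11 FPKM untreated to 0.035 ± 0.015 FPKM with TNF, and Adra2a from 2.92 ± 0.51 to 0.306 ± 0.108 FPKM (SD, n = 3), larger ratios of FPKM than for Tubb3. Tubb4a ranked 42nd of 13015 genes compared, at 0.352. The other 9 members ranked between 515th (Tubb2b) and 11618th (Tuba4a). The measure is not scaled for the size of a change, so the fall of Tubb3 that chose the set also puts steady genes far from it. Nothing is read from the ranks of the members.

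**Figure D4:**
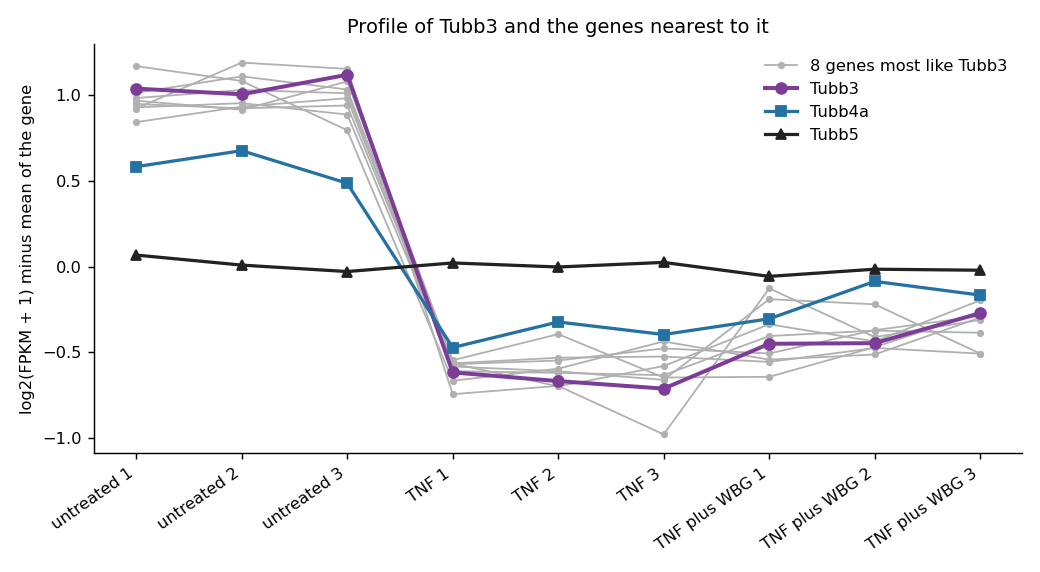
Log2(FPKM + 1) minus the mean of the gene over the 9 libraries, for Tubb3, the 8 genes nearest to it (grey), Tubb4a and Tubb5. Lines only join the points of a gene, and replicates have no order. Tubb3 and the grey genes drop together from untreated to TNF, Tubb4a drops less far, and Tubb5 runs near 0 throughout.

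Tubb3 is a neuron marker, and 3 of the 7 neuron markers that could be tested fell with TNF, where 4.21% of all genes did: Uchl1 (log2 difference -1.45 ± 0.07, limma adjusted p = 4.28e-06), the neurofilament genes Nefm (-1.19 ± 0.07, limma adjusted p = 1.42e-05) and Nefl (-0.89 ± 0.09, limma adjusted p = 0.000417). Nefl and Nefm overlap each other on opposite strands. Nefm had means of 6.34 ± 0.39, 2.23 ± 0.18 and 2.58 ± 0.13 FPKM (SD, n = 3) in the untreated, TNF and TNF plus WBG groups, and Uchl1 12.4 ± 0.65, 3.91 ± 0.16 and 4.43 ± 0.41 FPKM. The other 4, the adhesion genes Ncam1 and L1cam, the enolase Eno2 and the dendritic Map2, had log2 differences of -0.05, -0.16, 0.19 and 0.48 and did not pass the test. The summed level of all 20 neuron markers was 83.3 to 92.9 FPKM without treatment, 72.3 to 76.3 FPKM with TNF and 75.1 to 84.6 FPKM with TNF plus WBG. Of the 20, 4 were at 0 in all libraries as given above. Of the glia markers, S100b fell with TNF (-1.06 ± 0.10, limma adjusted p = 0.000228), while Sox10 did not pass. With WBG against TNF, all 7 tested neuron markers lay higher, by a median of 0.15 on the log2 scale against -0.003 for all genes, and none passed the test at an adjusted or at an unadjusted p of 0.05 in limma. Of the 8 fibroblast markers tested, Postn (-0.59 ± 0.04, limma adjusted p = 1.31e-05) and Pdgfrb (-0.51 ± 0.04, limma adjusted p = 6.62e-05) fell with TNF, and the collagen genes Col1a1 (0.28 ± 0.05, limma adjusted p = 0.00912) and Col1a2 (0.27 ± 0.05, limma adjusted p = 0.00587) rose. That is 50% of the 8, where 10.6% of all genes passed. The Col1a2 call was kept in 17 of 18 alternative analyses and lost with quantile normalization (limma adjusted p = 0.236). The summed level of the 10 fibroblast markers was 2717.6 to 2970.9 FPKM without treatment, 2968 to 2989.8 FPKM with TNF and 2804.2 to 3012.5 FPKM with TNF plus WBG, and Lum was at 0 in all 9 libraries. What part any mix of cell types has in the Tubb3 levels was not tested.

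The wider microtubule machinery was read from 9 lists of cytoskeleton genes. Of their 167 tested genes, 9 rose and 10 fell with TNF, which is 11.4% where 10.6% of all genes passed. With WBG against TNF none of the 167 passed, and 17 had an unadjusted p under 0.05 in limma, 11 higher and 6 lower, where 9.06% of all genes reached that level. The gene with the largest difference in that comparison was taken from each list. These were Fignl1 (-0.62), a severing-enzyme relative, Map6 (0.42), Acta2 (-0.28), Svbp (0.28) and Haus8 (0.25). The others were the dynein adaptor Bicd2 (-0.24), the tubulin-cofactor partner Arl2 (0.18), the spindle midzone gene Prc1 (-0.18) and Ttc5 (-0.05). Their limma adjusted p ran from 0.357 to 0.844 over the 9 lists. For Fignl1 and Bicd2, 1 TNF plus WBG library stood apart, at 0.797 and 11.3 FPKM against 3.27 to 4.07 and 17.7 to 17.8 FPKM. For Svbp and Prc1, 1 TNF library did, at 8.85 and 11.5 FPKM against 22.3 to 23.5 and 7.58 to 7.82 FPKM. With TNF plus WBG against untreated, 4 rose (Dclk1, Map7d1, Myh9 and Tpm1) and 5 fell (Vash1, Dclk2, Fign, Cct3 and Cct6a). That is 5.39% of the 167, where 9.19% of all genes passed.

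In the gamma-tubulin ring complex and its recruiters, the augmin genes among them, 0 of 17 genes passed with TNF in limma. Of all genes, 10.6% did. The median log2 difference of the list was 0.03. Cdk5rap2, a recruiter of that complex, had the largest difference, with the second library of each treated group far above the others: 6.47, 22.4 and 7.07 FPKM with TNF and 5.57, 22.6 and 6.28 FPKM with TNF plus WBG, against 4.04 to 4.41 FPKM untreated. Among 22 genes for tubulin folding (prefoldin, the CCT chaperonin and the tubulin cofactors), 9.09% passed with TNF, where 10.6% of all genes did. Of the 22, 2 fell and none rose. They were the chaperonin subunits Cct2 (-0.15 ± 0.04, limma adjusted p = 0.0453) and Cct6a (-0.12 ± 0.03, limma adjusted p = 0.0276), and these calls were lost in 12 and 9 of 18 alternative analyses, with limma adjusted p of up to 0.14 and 0.11. Of the 3 genes of tubulin mRNA autoregulation none passed in limma. Cnot11, an adaptor to the deadenylase, had a limma adjusted p = 0.0614 with TNF. Ttc5, the factor that reads the nascent chain, had means of 16.5, 17.3 and 16.7 FPKM, Scaper, which joins it to the deadenylase, 4.05, 4.21 and 4.06 FPKM, and Cnot11 16.9, 15.2 and 15.4 FPKM, in the untreated, TNF and TNF plus WBG groups.

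Among 18 enzymes that modify tubulin, 1 rose and 1 fell with TNF, which is 11.1% where 10.6% of all genes passed. Vash1, the carboxypeptidase that removes the last tyrosine of alpha tubulin, stood at 6.79, 6.91 and 7.90 FPKM without treatment, 4.68, 4.34 and 4.48 FPKM with TNF, and 5.04, 5.24 and 4.84 FPKM with TNF plus WBG. It fell with TNF by 0.57 ± 0.07 on the log2 scale (limma adjusted p = 0.000901), a call kept in 18 of 18 alternatives, and was lower in TNF plus WBG than in untreated cells too (-0.44 ± 0.07, limma adjusted p = 0.00439). Its partner Svbp did not pass in any comparison. Ttll1, a polyglutamylase, rose by 0.24 ± 0.07 (limma adjusted p = 0.048), and 12 of 18 alternatives lost that call.

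Of 27 genes of microtubule-associated proteins, 2 rose and 3 fell with TNF, which is 18.5% where 10.6% of all genes passed. Their median log2 difference was 0.03. Dclk1, a doublecortin-like kinase that binds microtubules, was 6.66, 6.60 and 6.88 FPKM untreated and 10.5, 10.3 and 9.07 FPKM with TNF (log2 0.51 ± 0.10, limma adjusted p = 0.0105). Map7d1, a kinesin-1 cofactor, rose by 0.29 ± 0.04 (limma adjusted p = 0.00149). The related Dclk2 fell by 0.38 ± 0.06 (limma adjusted p = 0.00368), opposite to Dclk1. The neuronal microtubule-binding genes Map1a and Map1b fell, Map1a from 2.13 ± 0.09 to 1.18 ± 0.08 FPKM (SD, n = 3; limma adjusted p = 0.00242) and Map1b from 23.5 ± 0.69 to 19.5 ± 0.10 FPKM (SD, n = 3; limma adjusted p = 0.00708). With WBG against TNF, 6 of the 27 had an unadjusted p under 0.05 in limma, all of them higher, where 9.06% of all genes reached that level, and none passed after adjustment. Map6, which stabilises microtubules, had the largest of these differences, 0.42 ± 0.16 (limma adjusted p = 0.508), with 7.55, 8.68 and 13.4 FPKM in the TNF plus WBG libraries against 6.64 to 7.15 FPKM with TNF.

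Of 12 destabilising and severing genes, Fign, a severing enzyme, fell with TNF from 6.14 ± 0.28 to 4.73 ± 0.02 FPKM (SD, n = 3; log2 -0.32 ± 0.06, limma adjusted p = 0.00766), and no other passed. That is 8.33% of the list, where 10.6% of all genes passed. Of 37 motor genes, Kif21a, a kinesin that restrains microtubule growth, fell by 0.28 ± 0.07 (limma adjusted p = 0.0334), and no other passed (2.7% of the list). Of 18 alternatives, 8 lost that call. Of 20 genes of the mitotic spindle and cell division, 18 lay higher with TNF and 7 without overlap, where 15.5% of all genes were higher without overlap. The median of that list was 0.14 on the log2 scale, against 3.41e-05 for all genes, of which about as many lay higher as lower. Only Top2a, a topoisomerase of dividing cells, passed (0.27 ± 0.06, limma adjusted p = 0.0289), a call that 8 of 18 alternatives lost. That is 5% of the list, where 10.6% of all genes passed. In the actin and intermediate filament list 5 of 11 rose and 2 fell with TNF, where 10.6% of all genes passed. With TNF plus WBG against untreated 2 of 11 rose, which is 18.2% of the list where 9.19% of all genes passed. The tropomyosin Tpm1 went from 153 ± 2.54 to 218 ± 0.91 FPKM (SD, n = 3; log2 0.51 ± 0.03, limma adjusted p = 5.57e-06), smooth-muscle actin Acta2 rose by 0.34 ± 0.07 (limma adjusted p = 0.0115), and Myh9, Actb and Tpm4 rose by 0.13 to 0.22, while the nuclear lamin Lmna and vimentin Vim fell by 0.30 and 0.28 (limma adjusted p = 0.0427 and 0.0423, both lost in 10 of 18 alternatives).

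**Figure D5:**
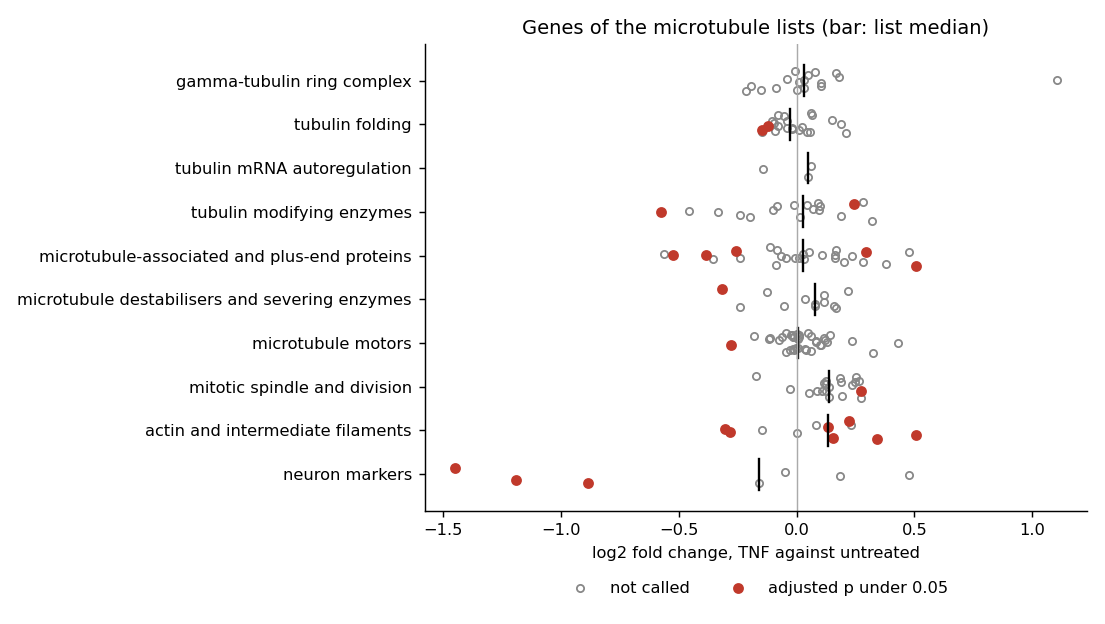
Log2 difference of FPKM + 1, TNF against untreated, for each tested gene of 9 cytoskeleton lists and of the neuron markers. Filled red points passed an adjusted p of 0.05 in limma, open points did not, and black bars are list medians. The points furthest left are the neuron markers Uchl1, Nefm and Nefl at -1.45, -1.19 and -0.89, and the open point furthest right is Cdk5rap2.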

How the data were processed

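The deposited table gives 1 FPKM value per gene and library, made by the authors from paired-end NovaSeq reads of poly-A RNA, per the labels' protocols. How reads were aligned and assigned to genes, with which annotation and build, is not given in the sources used here, and no column was left unmapped. GENCODE M21 supplied symbols for 55144 of 56289 identifiers. The 13026 genes that reached 1 FPKM in 3 or more of 9 libraries were tested. The log2 of FPKM + 1 entered limma 3.58.1 under R 4.3.3 (trended variance, group as the only term), a scale that understates changes of low genes. Tests were two-sided, and called means an adjusted p (Benjamini-Hochberg, over the 13026 genes) under 0.05. The depth estimate rests on single-exon genes, of whose low values 24.7 to 27.2% fell within 0.02 of a multiple of the step, against 4% for values without steps. The fit was tested on simulated data.

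The members and gene lists were chosen with earlier results of these data known. Named genes are all tubulins and, from each other list, up to 2 called genes per direction and comparison with the greatest change, or the greatest where none was called. The 8 genes nearest to Tubb3 leave out predicted and clone names. Scaper and Ttc5 (with TNF), Map1b, Svbp, Actb, Tpm4, Myh9 (with TNF) and the markers that were not called were named after their values were seen. Alternatives were pseudocounts of 0.1 and 5, no filter, a filter at mean FPKM 5, median-ratio scaling, quantiles, only the 6 libraries compared, limma without trend, a replicate block, and each library left out. Software: python 3.11.15 with numpy 2.4.6, with pandas 2.3.3, and matplotlib 3.10.9 for figures. One marker of the glia list is not reported here.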

Additional observations from a re-analysis of the deposited data

How the results depend on the processing

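As a description, the TNF minus untreated log2 difference of Tubb3 ran from -1.77 to -1.51 over the alternatives. No member was called for TNF plus WBG against TNF in any of the 18 alternatives, where the limma adjusted p of Tubb3 ran from 0.263 to 0.594. Genes called for TNF plus WBG against TNF were 13, 7 with only the 6 libraries compared, and 8 to 14 with a library left out, 8 of them without untreated replicate 1. With the replicate block there were 8 calls. Same-numbered libraries had correlated deviations of -0.072 to 0.107, so the numbers were not taken to pair them. Genes called for TNF against untreated were 1386, and 920 to 1299 with a library left out (920 without TNF replicate 3). For TNF plus WBG against TNF, quantile normalization turned the sign of Tuba1b (0.0018) and Tubb4b (0.019), and with a library left out Tubb2a ran from -0.0511 to 0.0212, Tubb2b from -0.0741 to 0.0827 and Tubb4b from -0.0251 to 0.018. The causes were not tested. Scaling moved the median of all genes to -0.0146 at most. Without counts, no counting error can be given.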
